A study of Mus musculus with 12 samples.

Results

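Nitric oxide (NO) and cyclic GMP (cGMP) signaling was examined in the mouse cerebellar cortex through 7 genes: Nos1, Prkg1, Prkg2, Pde5a, Pde9a, Npr1 and Npr2. They were chosen by name and function and are 7 of the 54752 genes of the deposited count table. NO made by neuronal NO synthase activates soluble guanylate cyclase in neighboring cells, and the cGMP formed activates cGMP-dependent protein kinases until phosphodiesterases hydrolyze it. Natriuretic peptides raise cGMP by a separate route, through receptors that carry their own guanylate cyclase domain. In the cerebellum, NO synthase is known to be abundant in granule cells and molecular layer interneurons, and cGMP kinase I in Purkinje cells, where the pathway takes part in long-term depression of parallel fiber synapses.

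Poly(A) RNA was sequenced from a part of the cerebellar cortex, dissected without the nuclei, of 12 male wild-type mice aged 12 weeks. All were F1 hybrids of C57BL6J and FVB, and 4 mice were on each of 3 diets. AL mice ate ad libitum. DR mice were under dietary restriction, were normally fed once a day just before dark, and were dissected early in the dark period without that day's meal. KD mice received a ketogenic diet, named by the labels alone. AL and DR libraries had been selected by RNA quality from a larger number of animals, and nothing in the sources used here ties mice of different diets to each other.

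Between 31712084 and 40798644 reads per mouse fell on genes (median 36674269), and the deposited values were raw counts. Levels are given here as CPM, read counts scaled to a common library total, after TMM scaling of library sizes. Of 19052 genes tested between DR and AL mice, 583 had an adjusted p under 0.05. The paper, with an earlier version of edgeR, reports a larger number of genes at that threshold between DR and AL. With edgeR no gene of 19036 passed between KD and AL mice, where 928 had an unadjusted p under 0.05 and 10 passed with DESeq2, and 942 of 19087 passed between KD and DR mice. An unadjusted p under 0.05 in edgeR was far more common in the comparisons with DR. It was found for 3429 of the 19052 genes between DR and AL, and for 3565 of the 19087 between KD and DR. Markers of granule cells, Purkinje cells, interneurons and Bergmann glia were abundant in every library, while 4 genes of forebrain and brainstem summed to 3.99 to 5.31 CPM. In these bulk samples, fewer cells of a type and less RNA per cell cannot be told apart.

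Nos1 fell and Npr1 rose on DR, relative both to AL and to KD. Between DR and AL mice, 2 of the 7 genes had an adjusted p under 0.05, against 3.06% of all genes tested, and the same 2 had CPM ranges that did not overlap between the diets, against 10.9% of all genes. Between KD and DR mice, Nos1 was higher and Npr1 lower on KD, again 2 of 7, against 4.94% of all genes. These 2 were also without overlap there, against 11.8% of all genes. Between KD and AL mice, 0 of the 7 passed with edgeR and 0 with DESeq2, against 0.0% of all genes with edgeR. In that comparison 0 of the 7 had an unadjusted p under 0.05, against 4.87% of all genes, and 0 had ranges without overlap, against 2.95%. The comparisons of DR with AL and of KD with DR share the 4 DR mice, so they are not independent of each other.

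**Figure D1:**
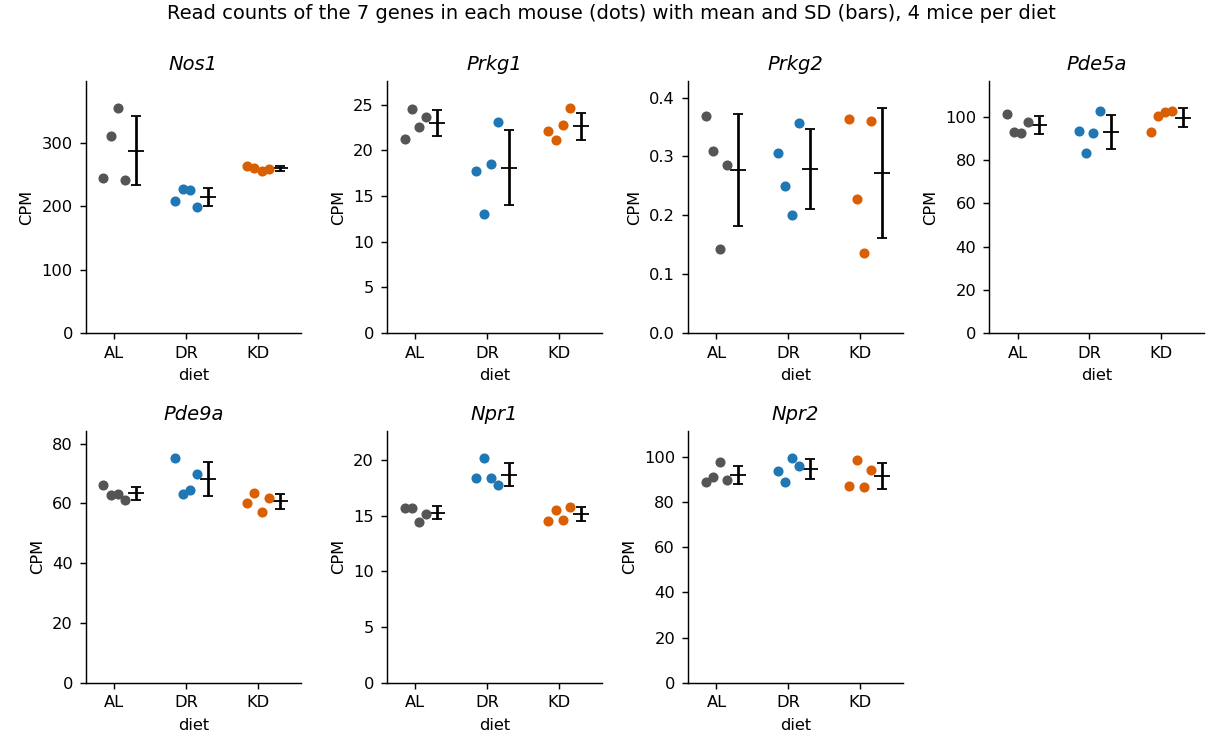
Level of each of the 7 genes in CPM (vertical axes, each starting at 0) by diet (horizontal axes), with 1 dot per mouse and a bar for the mean and SD of 4 mice. The 4 DR mice lie below the other 8 for Nos1, at 198 to 227 CPM, and above them for Npr1, at 17.8 to 20.2 CPM.

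Compared per kilobase of exon, over all 12 mice, the genes spanned a wide range of levels. Nos1 was at 22.8 ± 3.86 CPM per kb (SD, n = 12), Pde9a at 22.6 ± 1.66 and Npr2 at 19.9 ± 0.980. The ranges of Nos1 (17.8 to 31.8) and Pde9a (20.2 to 26.6) overlapped, as did those of Pde9a and Npr2 (18.6 to 21.3). Pde5a followed at 9.79 ± 0.602 CPM per kb, with no mouse in the range of Npr2 or of Npr1, which was at 3.42 ± 0.389. Prkg1, at 2.72 ± 0.429 CPM per kb, overlapped Npr1. Prkg2 was lowest, at 0.0514 ± 0.0157 CPM per kb, so that of the kinase genes Prkg1 held nearly all the reads.

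Npr1 was the member that rose on DR in both comparisons, and its proximal promoter is shown for that reason. It is the stretch of 250 bases before the transcription start, chr3:90465867-90466116 of GRCm38.p6 on the minus strand, from RefSeq's table of that build. Capitals mark GC boxes, searched as GGGCGG on both strands.
Npr1 promoter: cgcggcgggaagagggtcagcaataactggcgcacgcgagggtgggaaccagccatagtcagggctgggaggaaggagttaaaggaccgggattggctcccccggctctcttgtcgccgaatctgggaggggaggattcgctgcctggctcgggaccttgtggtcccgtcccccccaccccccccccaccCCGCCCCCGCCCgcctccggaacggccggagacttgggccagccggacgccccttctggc
Its GC content was 70.4%, against a median of 52.4% over 32851 promoter windows of the same length, and 2 adjacent GC boxes were found, a motif present in 32.7% of those windows. No CRE half-site (TGACG, in 17.8% of windows) and no E-box (CACGTG, in 6.02%) was found in this window on either strand. RefSeq starts were matched for 5 of the 7 genes. For Nos1, the listed start lies 85807 bases inside the deposited gene and coincides with the first base of a later exon in 4 GENCODE transcripts, so the bases before it are not shown as a promoter. For Prkg1, 2 starts were listed, 100663 bases apart and each a first exon of a GENCODE transcript, and the deposited counts do not separate the transcripts.

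Nos1 (ENSMUSG00000029361.18, chr5:117781032-117958840, plus strand, 33 exon blocks) encodes neuronal NO synthase, the enzyme that makes NO from arginine. The AL mice had 243.6, 310.2, 354.3 and 241.7 CPM, the DR mice 207.9, 227.3, 225.9 and 198.3 CPM, and the KD mice 263.5, 260.2, 255.5 and 257.6 CPM. Every DR mouse was below every AL and KD mouse, and the AL mice were spread widely around the narrow KD range. The coefficient of variation between mice was 19.1% on AL, 6.59% on DR and 1.33% on KD. Nos1 fell by 25.2% on DR relative to AL, a log2 fold change of -0.42 (standard error 0.10, 95% interval -0.63 to -0.21, adjusted p = 0.0347 by the edgeR quasi-likelihood F test, Benjamini-Hochberg adjusted over all genes, as for every adjusted p below unless another test is named). The adjusted p was 0.0582 with DESeq2 and 0.0113 in the edgeR fit on all 12 libraries. Leaving out 1 mouse at a time gave adjusted p of 0.0260 to 0.0986 in edgeR, and the call was lost without AL replicate 2 and without each of the 4 DR replicates. The fold change stayed negative in all 8 of these fits, at -0.49 to -0.30.

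Relative to DR, Nos1 was 20.6% higher on KD (log2 fold change 0.27, standard error 0.05, 95% interval 0.17 to 0.37, edgeR adjusted p = 0.00371), and this call held with each of the 8 mice left out, at adjusted p of 0.00283 to 0.0181. In the edgeR fit on all 12 libraries, which shares 1 estimate of spread with the AL mice, its adjusted p was 0.0919. Between KD and AL the log2 fold change was -0.15, with a 95% interval of -0.35 to 0.05.

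Cell markers were measured beside Nos1. The mean log2 CPM of 7 granule cell markers was 9.54 to 9.63 on AL, 9.56 to 9.60 on DR and 9.57 to 9.65 on KD, and 0 of the 7 passed between DR and AL (2 at an unadjusted p under 0.05). That of 6 molecular layer interneuron markers was 5.15 to 5.22 on AL and 5.07 to 5.20 on DR, also with 0 passing (0 at an unadjusted p under 0.05). Relative to the granule cell mean, Nos1 was 0.41 lower on the log2 scale on DR than on AL, and relative to the interneuron mean it was 0.34 lower, in both without overlap between the mice. Relative to 8 Purkinje cell markers the difference was -0.24, and the ranges overlapped. Relative to 8 markers of Bergmann glia and astrocytes it was -0.19, again with overlap. Oligodendrocyte precursor markers had lower estimates on DR in 4 of 4 genes, with 1 call and a median log2 fold change of -0.41, and a mean log2 CPM of 2.93 to 3.31 on AL and 2.40 to 3.001 on DR. Oligodendrocyte markers had lower estimates in 5 of 6, with 1 call and a median of -0.15, and means of 7.59 to 7.88 on AL and 7.46 to 7.72 on DR. Over all genes, 3.06% were called between DR and AL. For KD against DR, Nos1 was 0.25 higher relative to the granule cell mean and 0.23 higher relative to the interneuron mean, without overlap. Relative to the Purkinje cell mean it was 0.135 higher, and relative to that of Bergmann glia and astrocytes 0.13, both with overlap. Of the 7 granule cell markers, 2 passed between KD and DR, 1 higher and 1 lower on KD, against 4.94% of all genes. The part of these cell types in the level of Nos1 was not tested. Of its exonic bases 2.40% are shared with Gm26995 on the other strand, a gene with 2 to 21 counts per library against at least 7219 for Nos1.

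Prkg1 (ENSMUSG00000052920.14, chr19:30567551-31765033, minus strand) encodes cGMP-dependent protein kinase I, the form known from Purkinje cells and smooth muscle. The AL mice had 21.2, 24.5, 22.5 and 23.7 CPM, the DR mice 17.7, 13.1, 18.5 and 23.1 CPM, and the KD mice 22.1, 21.1, 22.8 and 24.6 CPM. Of the DR mice 3 were below all others, and DR replicate 4 lay within the AL and KD ranges. The coefficient of variation was 22.8% on DR, against 6.21% on AL and 6.52% on KD. Between DR and AL the log2 fold change was -0.34 (standard error 0.12, 95% interval -0.60 to -0.08), with an edgeR adjusted p of 0.151. Between KD and DR it was 0.32 (standard error 0.12, 95% interval 0.07 to 0.57, edgeR adjusted p = 0.140). Without DR replicate 4 both passed, at edgeR adjusted p of 0.0337 and 0.0203, and log2 fold changes of -0.48 and 0.46. With no filter on low counts they also passed, at edgeR adjusted p of 0.000411 and 0.000486, and in the 5 other settings neither did. Without that filter more genes passed in every comparison, among them 118 between KD and AL, where 0 passed with it. For Prkg1, KD and AL differed by a log2 fold change of -0.02, with a 95% interval of -0.15 to 0.12. The paper, which also used edgeR on AL and DR mice, lists Prkg1 among the genes it called lower on DR. The call of Prkg1 between DR and AL thus differs between the paper and the main fit here.

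Purkinje cell markers moved in the same direction as Prkg1. All 8 had lower estimates on DR than on AL, with a median log2 fold change of -0.15 against 0.00 over all genes. Of the 8, 2 passed, among them Car8, against 3.06% of all genes. The mean log2 CPM of the 8 markers was 8.26 to 8.38 on AL, 8.09 to 8.24 on DR and 8.27 to 8.31 on KD. Summed over the 8 genes the range was 6748 to 7240 CPM on AL and 5677 to 6554 CPM on DR. DR replicate 2, the lowest in Prkg1, was also the lowest of the 12 in this mean. Relative to it, Prkg1 was 0.21 lower on the log2 scale on DR than on AL, and the mice overlapped. The part of Purkinje cell RNA in the Prkg1 difference was not tested.

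Prkg2 (ENSMUSG00000029334.14, chr5:98929773-99037351, minus strand) encodes cGMP-dependent protein kinase II, a membrane-anchored form. It had 5 to 15 counts per library. The levels were 0.143 to 0.369 CPM on AL, 0.201 to 0.357 on DR and 0.137 to 0.363 on KD, with full overlap. Log2 fold changes were 0.00, -0.03 and -0.03 for DR against AL, KD against AL and KD against DR. The 95% interval for KD against AL ran from -0.86 to 0.81, so a difference of less than about that size was not detectable at this depth.

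Pde5a (ENSMUSG00000053965.10, chr3:122728947-122859374, plus strand) encodes phosphodiesterase 5A, which is specific for cGMP and known from Purkinje cells. The AL mice had 101.3, 93.1, 92.4 and 97.5 CPM, the DR mice 93.5, 83.3, 92.3 and 102.5 CPM, and the KD mice 93.1, 100.4, 102.1 and 102.7 CPM. The 3 diets overlapped, and DR held both the lowest mouse and 1 of the highest. The log2 fold change was -0.05 for DR against AL (95% interval -0.17 to 0.08), 0.05 for KD against AL (-0.04 to 0.15) and 0.10 for KD against DR (-0.02 to 0.22), with edgeR adjusted p of 0.732, 0.994 and 0.371.

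Pde9a (ENSMUSG00000041119.11, chr17:31386234-31476310, plus strand) encodes phosphodiesterase 9A, known for its high affinity for cGMP. The AL mice had 66.2, 62.9, 63.2 and 61.1 CPM, the DR mice 75.3, 63.1, 64.5 and 69.8 CPM, and the KD mice 60.1, 63.3, 57.3 and 61.8 CPM. DR replicates 1 and 4 were the highest of the 12, while the other 2 DR mice lay among the AL mice. Its log2 fold change was 0.11 for DR against AL (standard error 0.06, 95% interval -0.01 to 0.23, edgeR adjusted p = 0.342) and -0.06 for KD against AL (-0.16 to 0.03). For KD against DR it was -0.17 (standard error 0.06, 95% interval -0.29 to -0.05), with an unadjusted p of 0.00792 and an edgeR adjusted p of 0.0977. Of 6 other settings of the test, 1 gave an adjusted p under 0.05 for this difference, the edgeR fit with no filter on low counts (adjusted p = 0.0394).

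**Figure D2:**
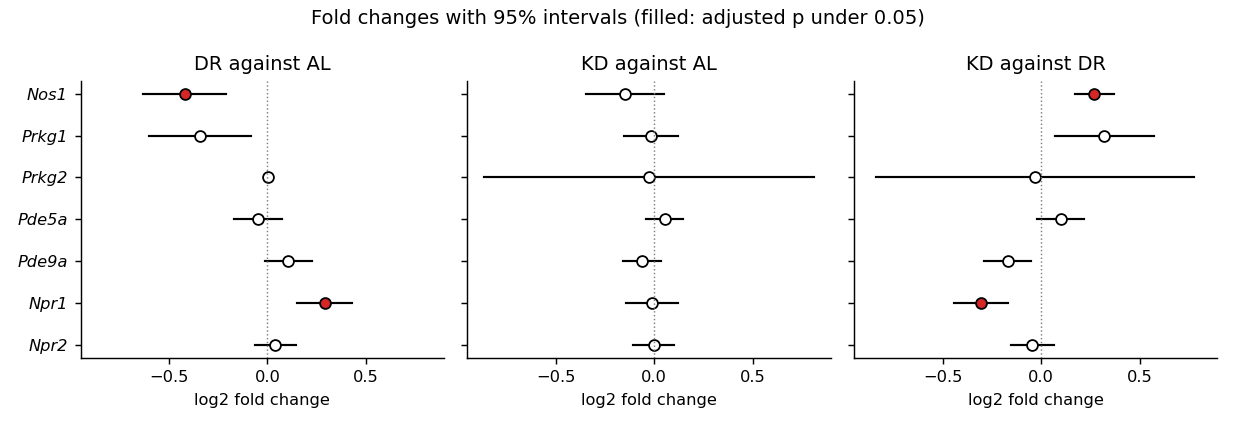
Log2 fold change (horizontal axes) of the 7 genes (vertical axis) in the 3 comparisons, with 95% intervals as lines and filled points for an adjusted p under 0.05. Nos1 and Npr1 are filled in opposite directions in DR against AL, at -0.42 and 0.29, and in KD against DR, at 0.27 and -0.30, and no point is filled in KD against AL. The standard error of Prkg2 in DR against AL, whose estimate was 0.00, was not computed, so it has no line.

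Npr1 (ENSMUSG00000027931.12, chr3:90450591-90465866, minus strand, 22 exon blocks), whose promoter is shown above, encodes the receptor guanylate cyclase for atrial and brain natriuretic peptides. The AL mice had 15.7, 15.7, 14.5 and 15.2 CPM, the DR mice 18.4, 20.2, 18.4 and 17.8 CPM, and the KD mice 14.5, 15.5, 14.7 and 15.8 CPM. Every DR mouse was above every AL and KD mouse, and the AL and KD ranges lay over each other. Npr1 was 22.3% higher on DR than on AL (log2 fold change 0.29, standard error 0.07, 95% interval 0.15 to 0.43, edgeR adjusted p = 0.0287). With 1 mouse left out at a time the edgeR adjusted p was 0.0376 to 0.0782, and it stayed under 0.05 in 1 of the 8 fits, that without DR replicate 4. The call held in all 6 other settings.

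For KD against DR the log2 fold change of Npr1 was -0.30 (standard error 0.07, 95% interval -0.44 to -0.17, edgeR adjusted p = 0.0128), and it held in all 8 fits lacking 1 mouse, at adjusted p of 0.0167 to 0.0494. Between KD and AL it was -0.01, with a 95% interval of -0.15 to 0.12. Of the exonic bases of Npr1, 11.7% are shared with Gm16048 on the other strand, and the library kit does not mark strand, so its counts are uncertain to that extent. Gm16048 had 0 to 7 counts per library, against 479 to 719 for Npr1.

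Among vascular markers, which belong to cells where natriuretic receptors are known, 0 of 6 endothelial and 0 of 6 mural cell genes passed between DR and AL, with 1 in each list at an unadjusted p under 0.05. The mean log2 CPM of the endothelial genes was 4.39 to 4.70 on AL, 4.53 to 4.59 on DR and 4.62 to 4.69 on KD. Relative to this mean Npr1 was 0.28 higher on the log2 scale on DR than on AL, with 1 overlap between the ranges (-0.77 to -0.41 on AL, -0.44 to -0.20 on DR). Relative to the mural cell mean it was 0.40 higher without overlap. Markers of Bergmann glia and astrocytes were lower on DR, with 3 of 8 (Aqp4, Gja1 and Hopx) passing, against 3.06% of all genes. The mean log2 CPM of these 8 markers was 7.30 to 7.38 on DR against 7.49 to 7.62 on AL. The part of any cell type in the rise of Npr1 was not tested.

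Npr2 (ENSMUSG00000028469.15, chr4:43631935-43651244, plus strand) encodes the guanylate cyclase receptor for C-type natriuretic peptide. The AL mice had 89.0, 90.9, 97.8 and 89.8 CPM, the DR mice 93.7, 88.7, 99.5 and 95.9 CPM, and the KD mice 87.0, 98.6, 86.7 and 94.1 CPM. The diets overlapped throughout. The log2 fold change was 0.04 for DR against AL (95% interval -0.06 to 0.14), -0.002 for KD against AL (-0.11 to 0.10) and -0.04 for KD against DR (-0.15 to 0.06). Of its exonic bases 5.70% are shared with Gm12473, which had 218 to 365 counts per library against at least 2836 for Npr2.

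**Figure D3:**
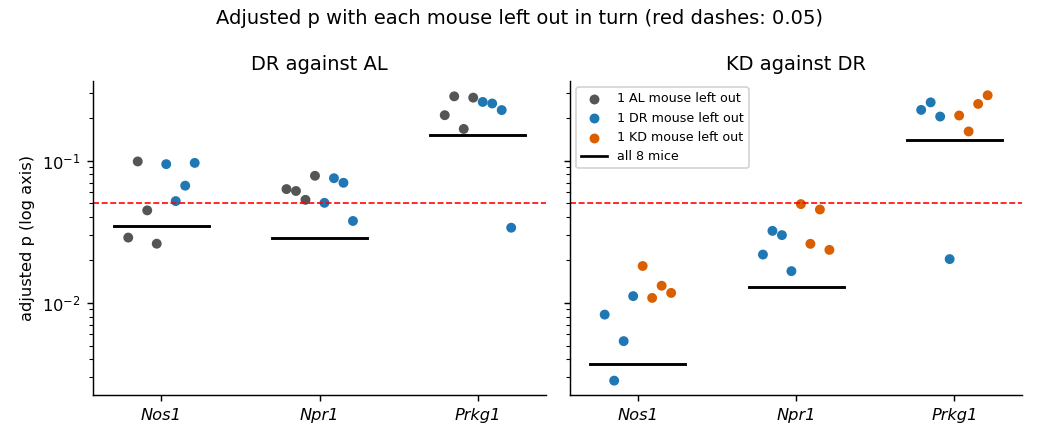
Adjusted p from edgeR (vertical axis, log scale) for Nos1, Npr1 and Prkg1 with each of the 8 mice left out in turn (dots, colored by the diet of the mouse left out) and with all 8 (lines), for DR against AL on the left and KD against DR on the right. The red dashes mark 0.05: Nos1 and Npr1 cross it in DR against AL and stay under it in KD against DR, and Prkg1 falls under it only without DR replicate 4.

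The 7 genes were compared with each other over the 12 mice on the log2 CPM scale, which gives 21 pairs. Permutations over all 12 mice took no account of diet, so differences between diets enter their p-values. Prkg1 and Pde5a had a Pearson r of 0.741 (permutation p = 0.011, adjusted over the 21 pairs 0.0955) and a Spearman rho of 0.573 (permutation p = 0.0554, adjusted 0.31). With diet means removed r was 0.726 (exact permutation within diets, p = 0.0957, adjusted 0.585). DR replicate 2 was lowest in both genes. Without DR replicates 1 and 2, the mice farthest from the median of Prkg1, r was 0.283. Leaving out the most extreme mice also narrows the range of Prkg1, so this value cannot show how far the relation rests on them. Prkg1 and Npr1 had r of -0.791 (permutation p = 0.00243, adjusted 0.051) and rho of -0.427 (permutation p = 0.169, adjusted 0.507), with r of -0.443 without the same 2 mice and -0.581 within diets (exact permutation p = 0.153, adjusted 0.617). Nos1 and Npr1, which moved oppositely between diets, had r of -0.684 and rho of -0.748 over all mice (permutation p = 0.0136 and 0.00674, adjusted 0.0955 and 0.142). Without AL replicate 3 and DR replicate 4 r was -0.648, and within diets it was -0.108 (exact permutation p = 0.785, adjusted 0.81). None of the 21 pairs passed after adjustment by any of these 3 tests.

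**Figure D4:**
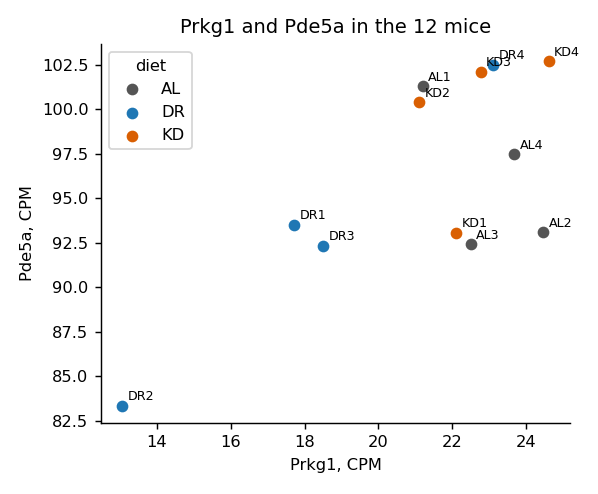
Prkg1 (horizontal axis) against Pde5a (vertical axis), both in CPM, with 1 labeled point per mouse colored by diet and axes that do not start at 0. DR replicate 2 lies at the lower left, at 13.1 and 83.3 CPM, apart from the other 11 mice.

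For each gene, the genes of most similar profile were sought among the 10074 genes that averaged 10 CPM or more, by Pearson r of log2 CPM over the 12 mice. These values describe the 12 libraries, which come from 3 diets, and have no test. Per the paper, AL and DR mice were dissected at different times within a window early in the dark period. It reports that core clock genes, Arntl among them, changed over that window. The dissection times were not used here. The closest to Nos1 were Wipf3 (r = 0.953), Megf11 (0.928) and Slc24a2 (0.916), and with diet means removed none of the 3 remained among its closest 3. The closest to Prkg1 were Nectin4 (0.931), Tmem28 (0.907) and Ttll5 (0.904), of which Nectin4 remained, at 0.896. For Pde5a they were Plpp6 (0.939), Plekhb1 (0.931) and Nwd1 (0.927), and the first 2 remained at 0.946 and 0.947, beside Arntl, a gene of the circadian clock, at 0.936. For Pde9a they were Dpm2 (0.911), Map1lc3b (0.905) and Olfm2 (0.905), and for Npr1 they were Gart (0.944), 4930430F08Rik (0.925) and Tmem147os (0.925), in neither case with any remaining. For Npr2 they were Spg7 (0.926), Phyhip (0.926) and Tbc1d9b (0.910), of which Spg7 remained. The profile of Prkg2 rests on too few counts for such a comparison.

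Around these 7 genes, 69 further genes of NO and cGMP signaling were listed by function, and 49 were abundant enough to test. Between DR and AL 3 of the 49 passed, against 3.06% of all genes. Asl and Pts rose and Hsp90aa1 fell, and the median log2 fold change of the 49 was -0.03 against 0.00 over all genes. Between KD and AL 0 of the 49 passed with edgeR, and 4 had an unadjusted p under 0.05, against 4.87% of all genes. Between KD and DR 4 of the 49 passed, against 4.94% of all genes, with Hsp90aa1, Qdpr and Pde1c higher and Asl lower on KD, and a median of 0.02 against 0.00 over all genes.

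Of the 15 tested genes of arginine, cofactor and inhibitor handling, 2 passed between DR and AL, against 3.06% of all genes. Asl encodes argininosuccinate lyase, which releases the arginine that NO synthase uses. It was at 15.6, 14.3, 17.4 and 14.4 CPM on AL, at 24.4, 22.0, 23.0 and 22.2 CPM on DR and at 15.2, 17.4, 12.7 and 14.6 CPM on KD. All DR mice were above all others, and Asl was 48.4% higher on DR than on AL (log2 fold change 0.57, standard error 0.07, edgeR adjusted p = 0.0010), a call kept with each mouse left out. Its log2 fold change for KD against DR was -0.62 (standard error 0.08, edgeR adjusted p = 0.000459). Ass1, which acts just before Asl, averaged 5.92 CPM in AL mice and 6.28 CPM in DR mice, without a call (edgeR adjusted p = 0.791).

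Pts and Qdpr serve tetrahydrobiopterin, the cofactor of NO synthase, the first in its synthesis and the second in its regeneration. Pts was at 9.81 to 12.2 CPM on AL, 12.9 to 14.9 on DR and 10.2 to 13.1 on KD. Its log2 fold change of 0.36 on DR relative to AL had an edgeR adjusted p of 0.0309, which stayed under 0.05 in 2 of 8 when single mice were omitted. Qdpr was at 34.7 to 37.3 CPM on AL, 29.6 to 32.6 on DR and 36.1 to 39.2 on KD, so all DR mice were below all others. It was higher on KD than on DR (log2 fold change 0.27, edgeR adjusted p = 0.00674), while DR against AL gave -0.20 with an adjusted p of 0.0504. That difference passed in 5 of 6 other settings, whose adjusted p ran from 0.0151 (DESeq2) to 0.0756 (library totals), and in 0 of the 8 fits lacking 1 mouse. Qdpr shares 18.6% of its exonic bases with Gm42413, which had 0 counts in every library. The cationic amino acid transporter Slc7a2 averaged 30.3 CPM in AL mice and 26.0 CPM in DR mice, with mice that did not overlap and an edgeR adjusted p of 0.124. The other genes of this role, among them Ddah1, which degrades an endogenous inhibitor of NO synthase, did not pass in any comparison.

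Among the synthases and their partners, 1 of 8 tested genes passed between DR and AL, against 3.06% of all genes. Hsp90aa1, a heat shock protein that binds NO synthases among many other clients, was at 1336, 1204, 1101 and 1523 CPM on AL, at 1008, 946.3, 969.8 and 1146 CPM on DR and at 1246, 1172, 1343 and 1303 CPM on KD. DR and AL mice overlapped by 1 pair, and its log2 fold change of -0.34 had an edgeR adjusted p of 0.0427, kept in 2 of 8 when single mice were omitted. On KD it was 0.31 higher than on DR on the log2 scale (edgeR adjusted p = 0.00626), in all 8 such fits. Nos3, the endothelial synthase, was at 7.57 CPM on AL, 7.56 on DR and 8.10 on KD and did not pass, and 32.3% of its exonic bases are shared with other genes. Nos2, the inducible synthase, was below the filter on low counts, at 0.235 CPM on AL and 0.114 on DR. Dlg4 and Nos1ap, scaffold partners of neuronal NO synthase, had log2 fold changes of -0.09 and -0.08 on DR relative to AL, without a call.

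Of soluble guanylate cyclase, the receptor for NO, 3 of 4 genes were tested and 0 passed in any comparison, with 1 at an unadjusted p under 0.05 in DR against AL, 0 in KD against AL and 1 in KD against DR. Over all genes, 3.06%, 0.0% and 4.94% passed in these comparisons. An unadjusted p under 0.05 in edgeR was found for 3429 of 19052, 928 of 19036 and 3565 of 19087 genes. With so few genes tested, an absence of calls says little about them. Gucy1a1 was at 49.9, 48.9 and 48.3 CPM on AL, DR and KD, and Gucy1b1, its partner subunit, at 73.7, 71.0 and 72.5 CPM. For DR against AL the 95% intervals of their log2 fold changes were -0.15 to 0.10 and -0.15 to 0.04. Gucy1a2 was at 6.52, 5.35 and 6.65 CPM, with adjusted p of 0.202 for DR against AL and 0.102 for KD against DR by edgeR.

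Of the other genes listed under phosphodiesterases that act on cGMP, among them Pde6 subunit genes, 10 of 14 were tested. Between DR and AL 0 passed and 2 had an unadjusted p under 0.05. Pde2a, at a mean of 0.591 CPM, shares 64.3% of its exonic bases with Gm45837 on the same strand, so its counts are uncertain. Pde1c, a calmodulin-dependent enzyme that hydrolyzes cAMP as well as cGMP, was at 128.1 to 150.2 CPM on DR and 147.4 to 193.6 CPM on KD, and was higher on KD by 0.29 on the log2 scale (edgeR adjusted p = 0.0228, kept in 4 of 8 when single mice were omitted). Pde10a was at 161.8, 134.5 and 143.8 CPM on AL, DR and KD without a call. Among receptor cyclases and their ligands, 5 of 14 were tested and 0 passed, with 3, 1 and 2 at an unadjusted p under 0.05 in DR against AL, KD against AL and KD against DR. Over all genes, such p-values in edgeR numbered 3429 of 19052, 928 of 19036 and 3565 of 19087, and 3.06%, 0.0% and 4.94% of genes passed. Nppc, which encodes the ligand of the Npr2 receptor, was at 3.42, 3.75 and 2.75 CPM on AL, DR and KD, and its adjusted p for KD against DR by edgeR was 0.0656. Nppa and Nppb, which encode the ligands of the Npr1 receptor, were below the filter.

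Of the targets of cGMP and its kinases, 6 of 11 were tested and 0 passed in any comparison, with 1 at an unadjusted p under 0.05, in DR against AL. Over all genes, 3.06% passed in DR against AL, 0.0% in KD against AL and 4.94% in KD against DR. In DR against AL, 3429 of 19052 genes had an unadjusted p under 0.05 in edgeR. Ppp1r17, the Purkinje cell protein that cGMP kinase phosphorylates, was at 232, 222 and 231 CPM on AL, DR and KD, with a log2 fold change of -0.07 on DR relative to AL (edgeR adjusted p = 0.523). Kcnma1, the calcium-activated potassium channel, was at 297, 276 and 294 CPM, without a call. Abcc4 and Abcc5, transporters that export cGMP, did not pass either.

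**Figure D5:**
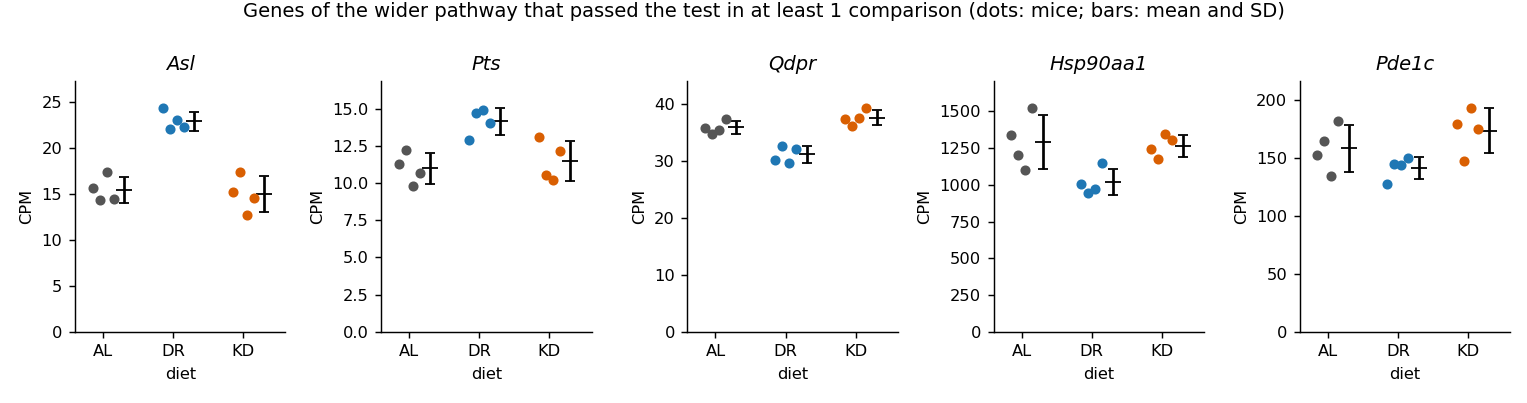
Level in CPM (vertical axes, each starting at 0) by diet of the 5 genes of the wider pathway that passed in at least 1 comparison, with 1 dot per mouse and a bar for the mean and SD of 4 mice. DR mice lie apart from all others for Asl, at 22.0 to 24.4 CPM, and for Qdpr, at 29.6 to 32.6 CPM.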

How the data were processed

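The authors trimmed reads with Trimmomatic 0.39, aligned them to GRCm38.p6 with STAR 2.7.0f and obtained gene counts from featureCounts of Subread 1.6.4, per the labels and the methods of the study. The deposited table holds these raw counts, without normalization, for 54752 genes and 12 libraries. The strand setting and the treatment of multi-mapped reads are not given in the sources used here. Symbols were matched for 54723 genes from a later GENCODE release on the same assembly. Exon lengths and overlaps came from the deposited table itself.

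For each pair of diets, edgeR 4.0.16 in R 4.3.3 was run on the 8 libraries concerned. The filterByExpr defaults (at least 10 counts, 15 in total) removed low genes, TMM factors scaled the libraries, and genes were tested by the quasi-likelihood F test, two-sided, with Benjamini-Hochberg adjustment over all genes and a threshold of 0.05. Standard errors were derived from the F statistic. Log2 CPM used a prior count of 2. Raw p-values of correlations came from 100000 permutations of the libraries or, within diets, all 13824 rearrangements, two-sided.

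Replicate numbers follow sample order and pair nothing. Replicates within a diet differed beyond sampling noise (chi-square per gene 4.95 to 11.6 over 18 pairs), and precision is limited by 4 mice per diet. The labels name no litter, cage or batch. The alternatives were other size factors, library totals, DESeq2 1.42.0, no filter, a filter at 10 CPM, a fit on all 12 libraries and leaving out each mouse. The procedure was tested on simulated data. Genes named were the 7 members, their 3 closest profiles, genes of the wider list that passed, marker genes that passed, genes overlapping a named gene, and further genes of the wider list given as values. The members, the list of 69 genes and the 12 marker lists were chosen with earlier results of these data known. The name and own values of 1 of the marker genes are not reported here.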

Additional observations from a re-analysis of the deposited data

How the results depend on the processing

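Calls among the 7 genes between DR and AL, 2 in number, were 1 with DESeq2 (Npr1), 3 with no filter on low counts (Prkg1 added) and 0 to 2 with a mouse left out, with 0 without AL replicate 2, DR replicate 1, DR replicate 2 or DR replicate 3. The 2 calls without DR replicate 4 were Npr1 and Prkg1, and no fit with a mouse left out called both Nos1 and Npr1. Between KD and DR the 2 calls became 4 with no filter on low counts, 1 in the fit on all 12 libraries (Npr1) and 2 to 3 with a mouse left out. Between KD and AL none was called with any alternative or mouse left out. Calls among the 49 further genes tested between DR and AL, 3, became 5 with DESeq2, 9 without the filter and 1 to 4 with a mouse left out. Their 4 calls between KD and DR became 7 with DESeq2 and 3 to 5 with a mouse left out, and their count between KD and AL stayed at 0.

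Over all genes, the 583 calls between DR and AL became 1012 with DESeq2, 1258 without the filter, and 235 (without DR replicate 3) to 712 (without AL replicate 3) with a mouse left out. Between KD and AL the count was 10 with DESeq2, 118 without the filter and 0 to 6 with a mouse left out. Between KD and DR the 942 calls became 1503 without the filter, and 467 (without KD replicate 3) to 946 (without DR replicate 4) with a mouse left out. Scaling by library totals moved the share of higher genes among the calls from 43.2% to 57.0% (DR against AL) and from 49.2% to 37.9% (KD against DR). Among the members and the genes of the wider list that passed, no fold change of a call changed sign. The sign was not followed for the other genes. The causes were not tested. No paired analysis was possible because the labels carry no replicate numbers.

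With 4 mice per diet and 5 to 15 counts for Prkg2, differences of small size were not detectable. The wide spread of AL mice in Nos1 and of DR mice in Prkg1 limits those comparisons. No mouse stood apart by Dixon's test in the 36 groups of 4 searched.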
